A study of Mus musculus with 2 samples.

Results

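The glycolytic enzymes, which carry glucose from its first phosphorylation to lactate, were described in 3T3 cells, a permanently growing fibroblast line from mouse embryos. The genes listed were Hk1, Hk2, Gpi1, Pfkl, Pfkp, Aldoa, Tpi1, Pgk1, Pgam1 and Ldha, 10 in all, and the members were the probe sets that the MG_U74Av2 platform annotation maps to 1 of them and to no other gene. This gave 12 of 12488 probe sets, for 9 of the 10 genes. Gpi1, which encodes glucose-6-phosphate isomerase, was not analysed here. The study holds 2 samples of total RNA, 1 per group, each labelled with biotin and read on 1 Affymetrix MG_U74Av2 array. The series text speaks of 2 replicates, whereas the labels name 1 sample a group, and whether a sample pools several cultures is not stated in the labels. In the fibronectin group the cells were plated for 30 min on fibronectin at 10 µg/ml, a matrix glycoprotein to which fibroblasts attach through integrins. In the suspension group they were kept unattached. The medium was serum-free DMEM in both groups, and the sources used here give no clone, passage or duration of suspension. Chip lot, fluidics module and scan day, per the file headers, differed between the arrays and cannot be told apart from the group.

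In glycolysis, hexokinases trap glucose as glucose 6-phosphate, and phosphofructokinases commit the sugar to breakdown. Aldolase and triose phosphate isomerase then make interchangeable triose phosphates, and the enzymes of the lower pathway draw ATP from them. Lactate dehydrogenase returns the cofactor to its oxidised form by turning pyruvate into lactate. Proliferating fibroblasts run this pathway even with oxygen at hand, and the hypoxia-inducible factor HIF-1 and Myc are known activators of many of its genes.

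Values are MAS5 signals, 1 per probe set, scaled to an equal trimmed mean on both arrays. Ratios are fibronectin over suspension on the log2 scale, after signals under a common floor of 490 were raised to it. A gene counted as measured where at least 1 array reached the floor, and its value is that of its brightest probe set. A fold with 1 array under the floor is a bound, given as "at least". As each group had 1 array, there was no test, and higher and lower describe these 2 arrays. Of 34 negative controls, which are antisense, bacterial and yeast probe sets, the 95th percentile was 1873 on fibronectin and 1403 in suspension. Fibroblast markers were above that level for 10 of 13 genes on fibronectin and 11 of 13 in suspension, with summed signals of 260742 and 183025. Of 6 liver markers 0 were above it on fibronectin and 1 in suspension, of 7 brain markers 0 in either, and of 11 muscle markers 2 and 5. The control probe sets of Gapdh had a 3′ over 5′ signal ratio of 0.84 on fibronectin and 1.47 in suspension, and those of Actb 1.19 and 1.79. This measure of transcript coverage differed between the arrays, and its part in the ratios below was not tested.

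Most of the pathway had close signals in both conditions, and the hexokinases at its entry lay at opposite ends. Of 8 measured genes, 1 was at least 1.5-fold higher on fibronectin (Hk2) and 1 at least 1.5-fold lower (Hk1), while 6 lay within 1.5-fold. Over all 6385 measured genes, 15.9% passed 1.5-fold upwards and 22.6% downwards. A share of 1 in 8 in each direction is near this background and is no result about the enzymes as a group. At 2-fold, 1 enzyme gene was higher and 0 were lower, against 5.79% and 9.27% of all measured genes. The median log2 ratio of the 8 genes was 0.12, against -0.09 over all measured genes. It lay on the other side of 0 after quantile normalization (-0.07) and with scaling to the hybridisation spikes (-0.36), where all genes had medians of -0.03 and -0.51. After loess, where Pfkp counted as a measured gene, it was 0.00.

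Hk1 encodes hexokinase 1, the broadly expressed form that binds the outer mitochondrial membrane. Its probe set 99335_at had a signal of 38362 on fibronectin and 59176 in suspension, so the suspension array was the higher. This was 1.54-fold lower on fibronectin, a log2 ratio of -0.63. Of all measured genes 20.8% had a ratio as low or lower. Median scaling brought the log2 ratio to -0.42, inside 1.5-fold, and scaling to the spikes to -1.10. Measured in these bulk extracts, less Hk1 RNA per cell and fewer cells that carry it cannot be told apart.

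Hk2 encodes hexokinase 2, the form that is inducible by insulin, growth factors and hypoxia and is high in many tumours. Its probe set 94375_at had a signal of 3545 on fibronectin and 863 in suspension. The fibronectin signal lay above the 95th percentile of negative controls of its array and the suspension signal below it. The log2 ratio was 2.04, or 4.11-fold, but its size is uncertain, since the suspension signal was not above background. With the floor raised to the level of the negative controls, the log2 ratio was at least 0.92, still higher on fibronectin. The other probe set, 161313_at, had 337 on fibronectin and 519 in suspension, at least 1.06-fold lower on fibronectin. Both its signals were within the range of the negative controls, so the direction of Hk2 rests on 1 probe set. The median over both, with the dimmer one taken after the floor, gave a log2 ratio of 0.98.

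The log2 ratio of the brighter Hk2 probe set minus that of Hk1 was 2.66 with the floor of 490. It was at least 1.55 with the floor at the negative controls, where the Hk2 suspension signal was under that floor. The larger value rests on the Hk2 suspension signal near background. Loess gave 2.86 and quantile normalization 2.75, and scaling a whole array by a constant leaves it as it is. With the dimmer Hk2 probe set the difference was at most 0.54, as its fibronectin signal was under the floor.

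Phosphofructokinase, which makes fructose 1,6-bisphosphate in the committed step, is built from subunits encoded by several genes. Pfkl, the liver-type subunit, had a signal of 5439 on fibronectin and 3898 in suspension in 92637_at. It was 1.40-fold higher on fibronectin, a log2 ratio of 0.48. Median scaling gave 0.69 and spike scaling 0.01. Pfkp, the platelet-type subunit, was not measured. Its probe set 97833_at had 441 on fibronectin and 145 in suspension, and 97834_g_at had 196 and 289. These are 4 signals under the floor in opposite order, and they give no direction for Pfkp. With no floor their log2 ratios were 1.61 and -0.56.

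The middle of the pathway showed the closest pairs of signals. Aldoa, the aldolase of muscle and most other tissues, had 13195 on fibronectin and 12971 in suspension in 160090_f_at. Its second probe set, 161889_f_at, had 5639 and 5974. The log2 ratios were 0.02 and -0.08, so both probe sets of Aldoa placed the conditions within 1.06-fold of each other. The _f in their names marks probes that may also detect related sequences. Tpi1, triose phosphate isomerase, had 11817 on fibronectin and 11780 in suspension in 99566_at, a log2 ratio of 0.00. Pgk1, phosphoglycerate kinase, which carries out the first ATP-yielding step, had 10349 on fibronectin and 10400 in suspension in 93346_at, a log2 ratio of -0.01. The sign of all 3 genes depends on the scaling. Under median scaling Aldoa, Tpi1 and Pgk1 had 0.23, 0.21 and 0.20, and with scaling to the spikes -0.45, -0.47 and -0.48.

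The last steps listed were slightly higher on fibronectin. Pgam1, the phosphoglycerate mutase of non-muscle tissue, had 6977 on fibronectin and 6040 in suspension in 160091_at, a log2 ratio of 0.21. Ldha, the lactate dehydrogenase subunit of glycolytic tissues, had 14422 on fibronectin and 11770 in suspension in 96072_at, 1.23-fold higher with a log2 ratio of 0.29. With scaling to the spikes both were below 0, at -0.27 and -0.18.

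**Figure D1:**
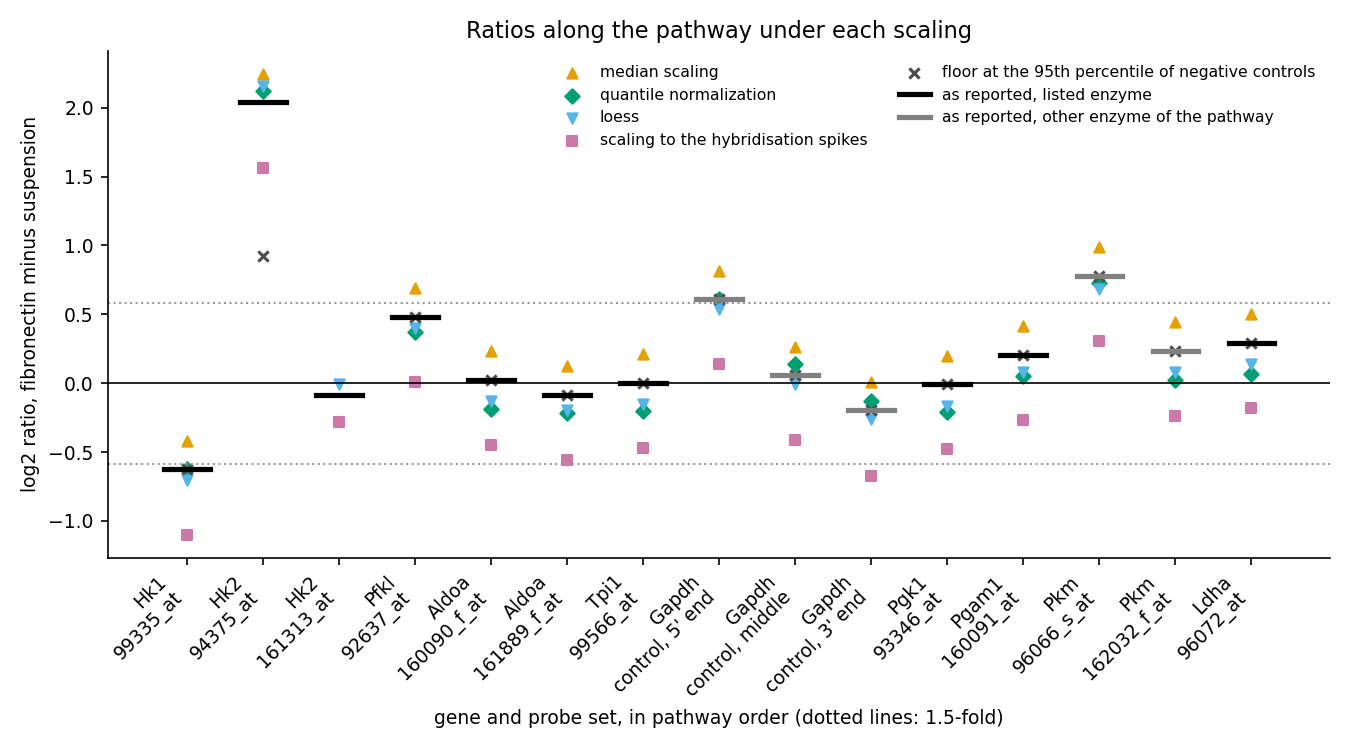
Log2 ratios (fibronectin minus suspension) of the measured probe sets in pathway order, as reported (bars; black for the listed enzymes, grey for Gapdh and Pkm) and under 4 other scalings and a higher floor (symbols). Dotted lines mark 1.5-fold. Hk2 lies at 2.04 and Hk1 at -0.63 as reported, and the control probe sets of Gapdh run from -0.20 to 0.61. Probe sets that name Gapdh together with other genes are not drawn.

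The spread of a ratio could be estimated from other probe sets of the same gene. Over 197 genes with several probe sets above the negative controls in both arrays, the SD of the log2 ratio of a probe set was 0.40. Over all 1146 genes with several measured probe sets it was 0.69. These SDs hold the disagreement between probe sets and are not replicate errors. Hk1 and Pfkl lay 1.57 and 1.21 of the smaller SD from 0. Aldoa, Tpi1, Pgk1, Pgam1 and Ldha lay within 1 SD, at most 0.74. Hk2, with its suspension signal in the range of negative controls, was not set against either SD. Without the hexokinases, the 6 other genes spanned 0.49 on the log2 scale, from -0.01 to 0.48. Of 7 members above the negative controls in both arrays, 0 were at least 1.5-fold higher and 1 was lower, against 16.9% and 7.29% of the 2263 genes at that level.

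**Figure D2:**
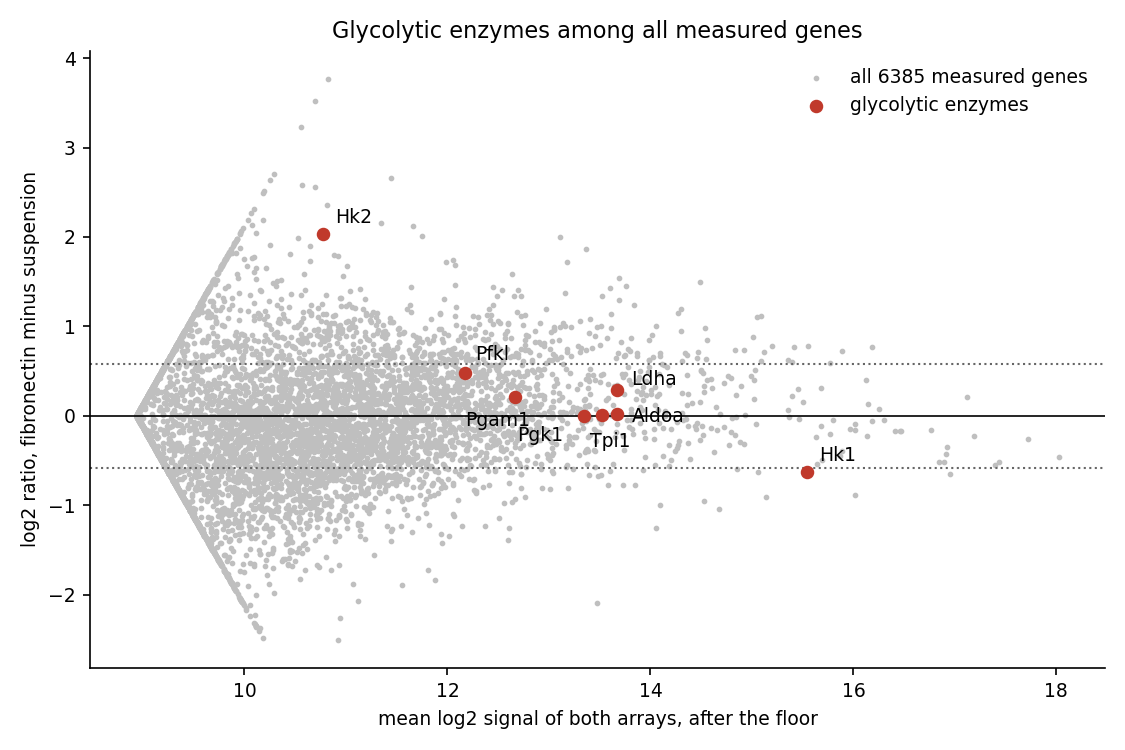
Log2 ratio (fibronectin minus suspension) against the mean log2 signal of both arrays, after the floor, for all 6385 measured genes (grey) and the 8 measured glycolytic enzymes (red). Dotted lines mark 1.5-fold. Hk2 stands at 2.04, with only its suspension signal under the negative control level. Hk1 stands at -0.63 among the brightest genes, and the other 6 enzymes between -0.01 and 0.48.

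The promoters of the hexokinase genes, at the ends of the range of ratios, are shown with those of Pgk1 and Ldha, whose signals were within 1.5-fold. Windows reach from 250 bases before to 50 after a start site and are read 5′ to 3′ from RefSeq, build GRCm38.p6. Capitals mark ACGTG, the core of the hypoxia response element, on either strand (CACGT on the other). Where it overlaps itself as CACGTG, the E-box that Myc is known to bind, all 6 letters are capitals.
Hk2, chr6:82774405-82774704, minus strand: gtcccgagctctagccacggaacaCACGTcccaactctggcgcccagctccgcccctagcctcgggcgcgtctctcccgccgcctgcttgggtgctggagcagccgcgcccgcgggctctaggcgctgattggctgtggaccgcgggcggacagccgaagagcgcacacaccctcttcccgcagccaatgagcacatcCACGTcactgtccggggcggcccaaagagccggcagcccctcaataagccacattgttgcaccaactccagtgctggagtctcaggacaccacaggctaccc
Hk1, chr10:62340372-62340671, minus strand: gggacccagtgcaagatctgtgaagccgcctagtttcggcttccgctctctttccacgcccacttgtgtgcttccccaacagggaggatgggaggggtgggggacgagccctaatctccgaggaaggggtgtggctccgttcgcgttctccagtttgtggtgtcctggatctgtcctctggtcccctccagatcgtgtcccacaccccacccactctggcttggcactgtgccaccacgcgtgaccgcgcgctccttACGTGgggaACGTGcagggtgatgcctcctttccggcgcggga
Pgk1, chrX:106186850-106187149, plus strand: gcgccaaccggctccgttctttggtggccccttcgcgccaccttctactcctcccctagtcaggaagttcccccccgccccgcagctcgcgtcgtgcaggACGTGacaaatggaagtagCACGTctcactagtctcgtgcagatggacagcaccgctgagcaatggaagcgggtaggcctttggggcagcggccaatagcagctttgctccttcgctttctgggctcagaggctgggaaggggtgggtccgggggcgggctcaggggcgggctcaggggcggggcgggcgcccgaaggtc
Ldha, chr7:46845554-46845853, plus strand: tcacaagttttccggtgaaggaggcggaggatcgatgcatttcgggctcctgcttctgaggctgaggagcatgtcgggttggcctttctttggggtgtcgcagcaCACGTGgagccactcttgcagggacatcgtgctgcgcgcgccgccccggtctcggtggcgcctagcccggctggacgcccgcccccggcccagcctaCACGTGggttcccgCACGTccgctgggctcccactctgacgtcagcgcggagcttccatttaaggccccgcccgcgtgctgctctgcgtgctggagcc

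Matches to ACGTG were found in the windows of 6 of the 10 listed genes (Hk1, Hk2, Aldoa, Pgk1, Pgam1 and Ldha), against 21.8% of all 27025 genes with a window. Per window, 7 of 14 held it, against 19.6% of all windows. Among windows with at least 60% G and C, 7 of 9 of the listed genes held it, against 26.5% of all such windows. These differences were not tested. The windows of the listed genes had a median of 64.0% G and C, against 52.7% over all windows, and a pair of Aldoa windows overlaps. Hk2 held 2 matches and the shown window of Hk1 also 2, both after its start site, while the other window of Hk1 held 0. The shown window of Ldha held 3 separate places, of which 2 were CACGTG, while its other window held 0. CACGTG was found in the windows of 1 of the 10 genes and in 8.09% of all genes. Genes with a match included the highest, the lowest and some of the flattest ratios. A match describes these letters and is no evidence of binding.

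Other enzymes of the pathway were read from a list of 17 genes, of which 8 were measured by gene probe sets. There 1 gene was at least 1.5-fold higher, 1 at least 1.5-fold lower and 6 in between, with a median log2 ratio of -0.20. Pkm, pyruvate kinase of muscle and proliferating cells, which makes pyruvate and ATP, had 49373 on fibronectin and 28792 in suspension in 96066_s_at. This was 1.71-fold higher, but 0.30 on the log2 scale with scaling to the spikes, inside 1.5-fold. Its second probe set, 162032_f_at, had 13905 and 11825, 1.18-fold higher, and turned to -0.24 on the log2 scale with scaling to the spikes. Gapdh, the dehydrogenase between Tpi1 and Pgk1, was read from control probe sets along its transcript. These had 66244 on fibronectin and 43380 in suspension at the 5′ end, 59498 and 57125 in the middle, and 55680 and 63871 at the 3′ end. Their log2 ratios were 0.61, 0.06 and -0.20. The span of 0.81 within this 1 transcript was wider than the 0.49 over the 6 enzymes other than hexokinases. Probe sets that name Gapdh together with other genes were lower on fibronectin. In 101214_f_at the signals were 20985 on fibronectin and 32949 in suspension, a log2 ratio of -0.65. In 162176_r_at they were 555, not above the negative controls, and 1456, a log2 ratio of -1.39. Pfkm, the muscle-type phosphofructokinase subunit, was 1.24-fold lower with 3385 on fibronectin and 4204 in suspension. Gapdhs, the isoform of sperm, was at least 4.35-fold lower in 1 probe set, with 351 on fibronectin and 2129 in suspension, and at least 1.17-fold higher in another. Its suspension signal was above the 95th percentile of negative controls and its fibronectin signal under the floor. Pklr, of liver and red cells, was at least 1.31-fold lower, with 69 and 640, both below that percentile.

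Of 6 measured genes of glucose and lactate transport, 1 was at least 1.5-fold higher and 2 were lower, with a median of 0.13. The shares over all measured genes were 15.9% higher and 22.6% lower, and the difference from them was not tested. Slc2a1, the glucose transporter GLUT1 that feeds hexokinase in fibroblasts, had 1563 on fibronectin and 264 in suspension. It was at least 3.19-fold higher, but the fibronectin signal did not reach the negative control level of that array, 1873. Bsg, basigin, which brings lactate transporters to the membrane, had 38009 on fibronectin and 27805 in suspension, 1.37-fold higher, and -0.02 on the log2 scale with scaling to the spikes. Slc2a2 and Slc2a3, the GLUT2 and GLUT3 transporters, were at least 1.89-fold and at least 1.72-fold lower, with all 4 signals among the negative controls. Among 6 regulators of glycolytic flux, beside the same shares of all measured genes, 0 were at least 1.5-fold higher and 1 was lower. This was Pdk1, which restrains pyruvate dehydrogenase and is a HIF target, at least 2.02-fold lower with 324 on fibronectin and 988 in suspension, both near background. The kinase genes Akt1 and Akt2, which act on glucose uptake and hexokinase binding, were 1.48-fold and 1.39-fold higher. With scaling to the spikes their log2 ratios were 0.09 and 0.00. Pfkfb3, whose product makes the activator of phosphofructokinase, was at least 1.36-fold higher, with 664 and 489 near the floor, and -0.03 on the log2 scale with scaling to the spikes.

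Of 14 measured genes of the HIF pathway and its other targets, 5 were at least 1.5-fold higher, each also at least 2-fold, and 3 at least 1.5-fold lower, with a median of 0.38. Over all measured genes the shares were 15.9% and 22.6%, and the difference from them was not tested. Hif1a, the oxygen-regulated subunit of HIF-1, had 12829 on fibronectin and 11373 in suspension in 98628_f_at and a log2 ratio of 0.17, with 0.25 in its second probe set. Both turned below 0 with scaling to the spikes, at -0.30 and -0.22, and the first also after quantile normalization, at -0.03. The angiogenic factor gene Vegfa was at least 5.62-fold higher, with 2753 on fibronectin and 388 in suspension. Hmox1, the haem oxygenase, was 2.82-fold higher, with 38703 on fibronectin and 13709 in suspension. P4ha2, a collagen prolyl hydroxylase subunit, was 2.08-fold higher in 1 probe set and 1.32-fold in the other. Ndrg1 was 2.06-fold higher in 1 probe set and 1.55-fold in the other. The first was above the negative controls in both arrays, with a log2 ratio of 0.57 under scaling to the spikes. Egln1, which marks HIF for degradation, was 2.13-fold higher, with both signals, 1336 and 627, among the negative controls. The 3 lower genes were Bnip3 (1.89-fold), Epo (1.64-fold) and Vhl (at least 1.62-fold), with all their signals among the negative controls. Myc had 1882 on fibronectin and 1319 in suspension, a log2 ratio of 0.51. Its fibronectin signal was only just above the 95th percentile on that array, 1873, and its suspension signal was not above the negative controls. The ratio was at least 0.01 with the floor at their level and 0.04 with scaling to the spikes.

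**Figure D3:**
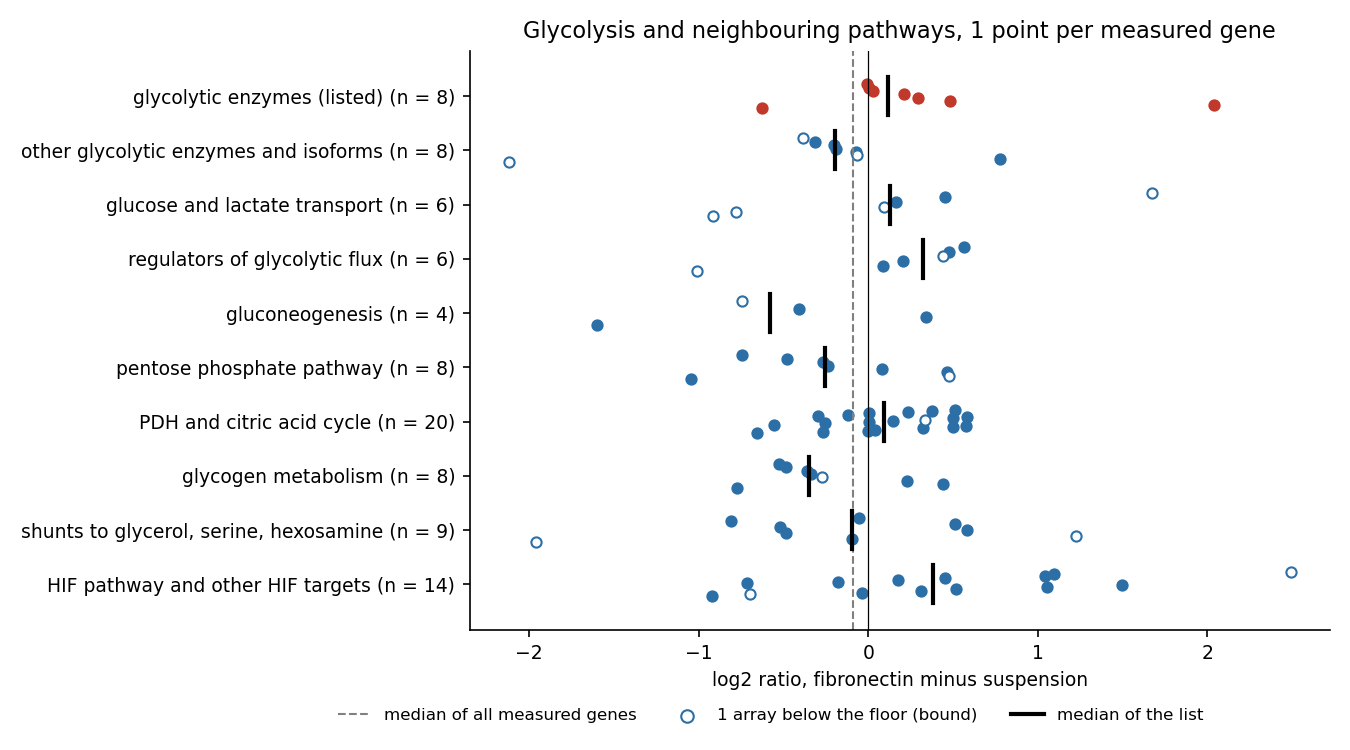
Log2 ratios (fibronectin minus suspension) of the measured genes of the glycolytic enzymes (red) and of 9 lists of neighbouring pathways (blue), with 1 point per gene, open where 1 array was under the floor. Black bars are list medians, 0.12 for the listed enzymes and 0.38 for the HIF list, and the dashed line is the median of all measured genes, -0.09.

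Gluconeogenesis, the reverse path, had 4 measured genes, with 0 at least 1.5-fold higher, 2 lower and a median of -0.58. Over all measured genes the shares were 15.9% higher and 22.6% lower, and the difference from them was not tested. G6pc, the glucose-6-phosphatase of liver and kidney that undoes the hexokinase step, was 3.03-fold lower, with 766 on fibronectin, not above the negative controls, and 2323 in suspension. Pck1, the cytosolic phosphoenolpyruvate carboxykinase, was at least 1.68-fold lower, with 303 and 823. Pcx, pyruvate carboxylase, was 1.33-fold lower in 1 probe set and at least 1.91-fold higher in another, and Pck2, the mitochondrial carboxykinase, was 1.27-fold higher in 1 and 1.39-fold lower in the other. Of the 4 genes, 0 were above the negative controls in both arrays. The median of negative controls was itself lower on fibronectin, 292 against 459 in suspension, and its part in these low ratios was not tested.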

How the data were processed

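Total RNA of 3T3 cells was prepared on RNeasy columns, per the labels' protocols, and hybridised to 1 MG_U74Av2 array per group. The authors deposited intensities on a linear scale, a signal for each probe set from MAS5, per the submitters' processing notes, with version and scaling target not given in the sources used here. Instrument settings, in the other deposited files, gave no values. Each array was scaled to an equal 2% trimmed mean over 12422 probe sets that are not controls (factors 1.00 and 0.999), floored at the mean of the 40th percentiles, 490, and log2 was taken. Gene names came from the platform annotation, where 10855 probe sets name 1 gene, 396 several and 1237 none, and 10839 matched RefSeq of GRCm38.p6 by gene ID. Python 3.11.15, pandas 2.3.3 and statsmodels 0.14.6 were used, and the steps were tested on simulated data. There the changed genes were above the floor and the noise was smaller than the SDs between probe sets. Recovery of ratios near background was not tested. The number of arrays limits the precision, and no test between groups was made. Named were every probe set of the members, up to 4 genes with the largest ratio of each of 9 neighbouring lists, and Gapdh, Pkm, Slc2a1, Hif1a, Myc and Fn1, whose log2 ratio was -0.05. All genes of the HIF list at least 1.5-fold higher or lower were named too. Eno1 was not analysed here. Markers of 7 cell types were read, and those of blood cells, epithelium and testis were above the 95th percentile of negative controls for 1 of 6, 0 of 6 and 0 of 5 genes on fibronectin, and for 3, 1 and 1 in suspension. Members and lists were chosen with earlier results of these data known. The alternatives were other floors, scalings and choices of probe set.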

Additional observations from a re-analysis of the deposited data

How the results depend on the processing

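Of 10 alternatives, those with a floor at the 20th percentile, no floor, or median scaling moved the number of glycolytic enzyme genes at least 1.5-fold higher on fibronectin to 2, by adding Pfkp with the lower floors and Pfkl with median scaling. Median scaling also moved the number at least 1.5-fold lower to 0, as it raised the median of all measured genes by 0.19. Scaling to the spikes moved that median by -0.43. The median of the enzymes ran from -0.36 to 0.32 and was below 0 after quantile normalization and with scaling to the spikes. Of 79 values of single genes, 77 moved by less than the 0.69 SD between probe sets and 2, both of Hk2, by more. This limit is wider than 1.5-fold, 0.58 on the log2 scale. Scaling by a constant moved all genes above the floor alike and by less than it, so the count says little about those scalings. With scaling to the spikes Pfkl went from 0.48 to 0.01 and Ldha from 0.29 to -0.18. No paired analysis was possible because each group had 1 array, and leaving out an array was not possible for the same reason. Depth is that of the signal over background, which leaves Pfkp and the dimmer probe set of Hk2 without a direction.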

Other observations

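Pathways that branch from glycolysis or take up its product were read from 4 lists, beside 15.9% of all measured genes at least 1.5-fold higher on fibronectin and 22.6% lower. Of 20 measured genes of pyruvate dehydrogenase and the citric acid cycle, 0 were at least 1.5-fold higher on fibronectin, 1 was at least 1.5-fold lower and 19 lay within 1.5-fold, with a median log2 ratio of 0.09. The lower gene was Dlat, the acetyltransferase of pyruvate dehydrogenase, 1.58-fold lower with 1292 on fibronectin and 2041 in suspension, and 1.16-fold lower in its other probe set. Its fibronectin signal was not above the negative controls. Ogdh and Dlst, which encode subunits of the oxoglutarate dehydrogenase complex, had 3498 and 2636 on fibronectin against 2341 and 1767 in suspension. Both were 1.49-fold higher, and the other probe set of Dlst was 1.52-fold higher. Idh3a, a subunit of isocitrate dehydrogenase, was 1.47-fold lower, with 978 on fibronectin, not above the negative controls, and 1437 in suspension. With scaling to the spikes Ogdh and Dlst had log2 ratios of 0.11 and 0.10.

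Of 8 measured genes of the pentose phosphate pathway, 0 were at least 1.5-fold higher and 2 were lower, with a median of -0.25. Rpe, ribulose phosphate epimerase, was 2.06-fold lower with 838 on fibronectin and 1728 in suspension, and Taldo1, transaldolase, 1.68-fold lower with 494 and 828. Both signals of Taldo1 and the fibronectin signal of Rpe were not above the negative controls, which leaves the size of both folds unfixed. Pgls, the lactonase, was 1.40-fold lower, with 4797 on fibronectin and 6701 in suspension. G6pd2, a glucose-6-phosphate dehydrogenase, was at least 1.39-fold higher, with 680 and 198, both among the negative controls. Of 8 glycogen genes, 1 was at least 1.5-fold lower, Pgm1, which interconverts the glucose phosphates, with 3263 on fibronectin and 5574 in suspension (1.71-fold). Pgm2 was 1.44-fold lower, Gys1, glycogen synthase, 1.40-fold lower, and Phkg2, a phosphorylase kinase subunit, 1.36-fold higher, where Pgm2 and Phkg2 were among the negative controls in both arrays. Among 9 genes of the branches to glycerol, serine and hexosamine, 1 was at least 1.5-fold higher and 2 were lower. Gpd1, which makes glycerol phosphate, was at least 3.89-fold lower, with 309 on fibronectin and 1903 in suspension. Gfpt2, of hexosamine synthesis, was at least 2.34-fold higher, with 1144 and 369. Shmt1, which uses serine, was 1.75-fold lower. The fibronectin signals of Gpd1 and Shmt1 and both signals of Gfpt2 were not above the negative controls. Psat1, of serine synthesis, was 1.49-fold higher, with 3311 on fibronectin and 2215 in suspension, and 0.11 on the log2 scale with scaling to the spikes. The list median was -0.09.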
